A study of Mus musculus with 6 samples.

Results

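The genes described here encode the synaptic vesicle and release machinery of neurons: 33 genes chosen by symbol, from calcium sensors to endocytic proteins. All 33 were found among the 36793 gene identifiers of the deposited table, and all passed the filter on low counts, so 33 of 16809 tested genes were members. Their expected counts were at least 916 in every library. They were examined in RNA of lumbar dorsal root ganglia from 3 mice labelled wild type (mice 1 to 3) and 3 labelled NMDA-R knockout (mice 4 to 6). The series title places the deletion, of the gene for the NMDA receptor subunit GluN1, in Schwann cells, and the labels also call the groups GluN1+ and GluN1-. The sources used here do not give strain, sex, age, the promoter that drove the deletion, any allele shared by both groups or whether ganglia were pooled. The comparison asks how gene expression in the ganglion differs between the genotypes.

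A dorsal root ganglion holds the cell bodies of sensory neurons, wrapped by satellite glia, with Schwann cells along their axons. Transmitter is released far from the cell body, at terminals in the spinal cord and the periphery, but the messenger RNAs for the release proteins are made in the ganglion. At a terminal, vesicles are tethered to each other and to actin by synapsins and held near the membrane by Rab3 proteins. They are primed at the active zone by RIM and Munc13 proteins, and fuse when the SNARE proteins zip together. Synaptotagmins sense the calcium that triggers fusion, and dynamin, amphiphysin, endophilin and synaptojanin then recover the membrane.

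The labels give the cell type as Schwann cells and the source as dorsal root ganglion, and the libraries held both glial and neuronal RNA. Summed over 22 pan-neuronal markers that exclude release genes, the deposited TPM (transcripts per 1000000, a level per gene length) was 20850 to 27360 in wild type and 24750 to 31240 in knockout. Over 14 genes of myelinating Schwann cells the sum was 5403 to 6354 and 7077 to 7343. No marker of either list was at 0 in any library. In bulk RNA fewer cells of a type and less RNA per cell cannot be told apart. For the targeted gene, Grin1, wild-type libraries gave 68.4, 114 and 74.4 CPM and knockout libraries 81.5, 116 and 116 CPM (counts per 1000000, TMM-normalised). With the deletion placed in Schwann cells, whole-ganglion RNA does not check the labels. Knockout libraries 5 and 6 differed by no more than sampling noise (0 of 10258 genes by chi-square, against 3382 to 7317 in the other 14 pairs) and were summed and counted as 1 sample, which left 3 wild-type and 2 knockout samples. Totals were 28526704 to 36249163 expected counts per library. Knockout 4 stood apart: haemoglobin genes took 1.52% of its counts and 0.304% to 0.598% of those of the other libraries, and its summed TPM of 7 skeletal muscle genes was 69.0, with 6.16 to 25.6 elsewhere.

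No release gene passed the test between genotypes. The most negative values belonged to 3 of the 5 calcium sensors and gamma-synuclein: the knockout means of Syt1, Syt5, Syt9 and Sncg were 1.33 to 1.47 times below the wild-type means. Every knockout library lay below every wild-type library for these 4 of 33 genes (12.1%), a share no higher than the 14.1% of all tested genes. Syt2, a calcium sensor related to Syt1, had the highest log2 fold change of the 33, at 0.61 with a standard error of 0.32. For 27 of the 33 genes the range among the wild-type libraries was larger than the difference between genotypes. By the edgeR quasi-likelihood test with Benjamini-Hochberg adjustment over all genes, 0 of 33 members passed at 0.05, where 0.0952% of all tested genes did (16 of 16809). At an unadjusted p under 0.05, 4 of 33 members (12.1%) were lower and 0 higher, beside 3.99% and 5.15% of all tested genes. All knockout libraries lay above all wild-type libraries for 0 members, against 10.1% of all tested genes. The median log2 fold change of the members was 0.04, and that of all tested genes was 0.00119. Counting libraries 5 and 6 separately, 1 member passed (Syt1, edgeR adjusted p = 0.0368), where 0.871% of genes did, and DESeq2 on the 5 samples also called Syt1 alone (adjusted p = 0.000682), where 1.38% did.

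**Figure D1:**
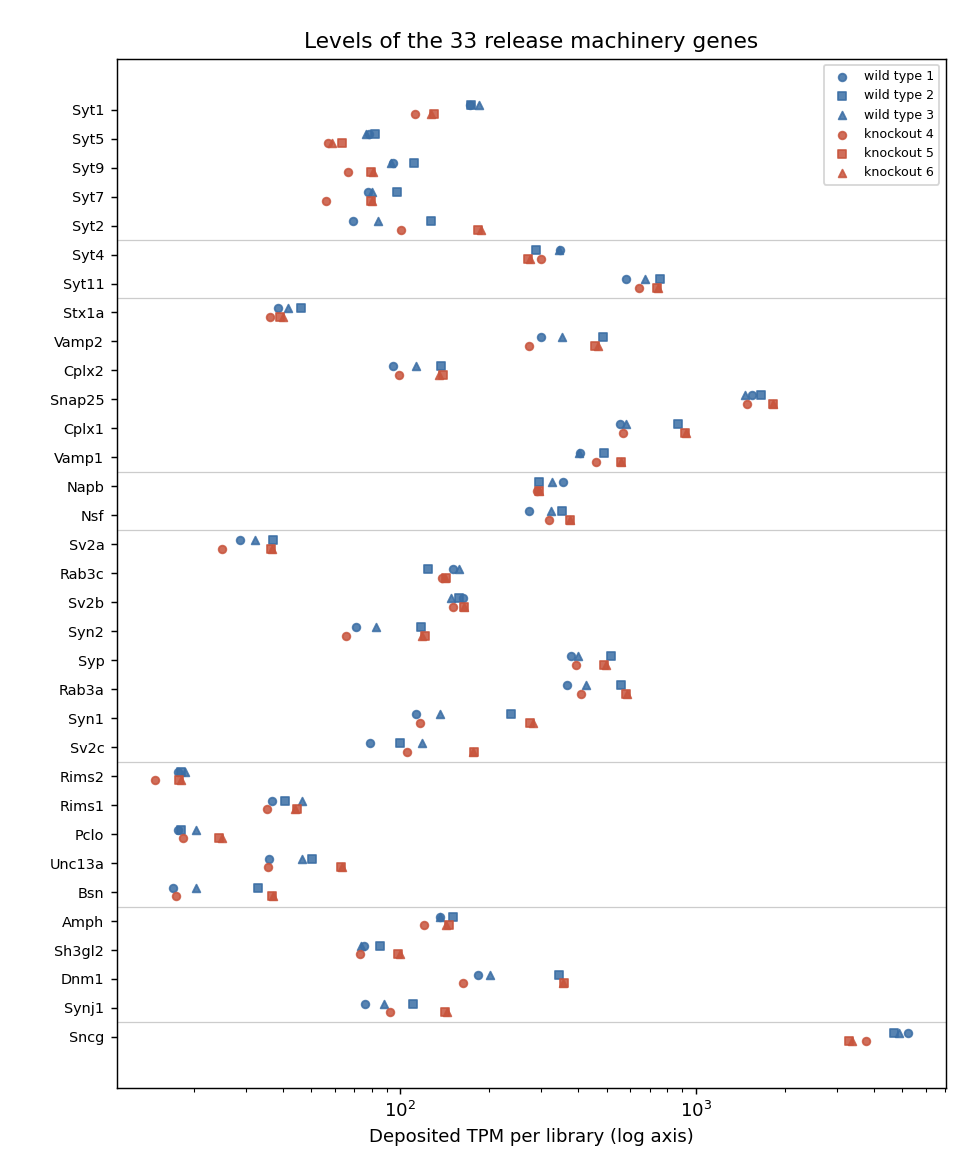
Deposited TPM of each of the 33 genes (log axis) in each library; wild type in blue, knockout in red, grouped by role from calcium sensors at the top to gamma-synuclein at the bottom. Sncg is the highest gene, at 4691 to 5236 TPM in wild type, and the 5 active zone genes are at most 63.4 TPM in any library.

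Read per gene length, the members spanned a wide range of levels. Sncg, gamma-synuclein, a small soluble protein abundant in sensory neurons, was highest at 5236, 4691 and 4863 TPM in the wild-type libraries, with 3761, 3303 and 3369 TPM in the knockout libraries. Snap25, the SNARE protein of the plasma membrane that botulinum toxin A cleaves, followed, with wild-type values of 1554, 1668 and 1470 TPM and knockout values of 1491, 1826 and 1832 TPM. Cplx1, complexin 1, came next, with 555, 875 and 583 TPM in the wild-type libraries and 566, 920 and 925 TPM in the knockout libraries. Its wild-type level of 671 ± 177 TPM (SD, n = 3) did not differ beyond the spread from that of Syt11, 671 ± 88.8 TPM. Rab3a (450 ± 97.3 TPM), Vamp1 (432 ± 48.1 TPM) and Syp (432 ± 75.6 TPM) also lay within each other's spread. The lowest were the large active zone proteins: Bsn at 23.5 ± 8.47, Pclo at 18.7 ± 1.47 and Rims2 at 18.1 ± 0.512 TPM.

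Promoters are shown for Syt1, the gene with the lowest log2 fold change, and for Syt2 and Sv2c, the genes with the highest, to set sequence beside value. RefSeq (GRCm38.p6) gave a promoter for 27 of the 33 genes, and the 250 bases before the start are printed 5′ to 3′ on the gene's strand. Of the 27 windows 12 held no base of the annotated gene in GENCODE vM21. Among these, that of Cplx2 ended at base 54302555, far before the annotated start at 54371349. Those of Syt11, Rab3c and Sh3gl2 lay wholly inside the annotated gene. For 23 of the 27, bases after the start lay in a transcript of the gene. The shares below include all 27. The windows of Sncg and Syt9 reached 120 and 62 bases into the annotated gene and are not printed. That of Syt1 reached 7 bases into it, and those of Syt2 and Sv2c did not touch it. Capitals mark each GC box (GGGCGG) and CCAAT box (CCAAT) found on either strand. For Syt1 and Syt2, which have 2 listed starts each, the one nearest the annotated 5′ end was taken.
Syt1, chr10:109010976-109011225, minus strand: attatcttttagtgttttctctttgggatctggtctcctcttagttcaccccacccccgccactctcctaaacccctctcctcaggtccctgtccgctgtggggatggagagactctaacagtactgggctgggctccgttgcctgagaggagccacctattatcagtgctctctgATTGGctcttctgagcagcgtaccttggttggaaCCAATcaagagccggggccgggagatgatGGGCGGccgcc
Syt2, chr1:134646362-134646611, plus strand: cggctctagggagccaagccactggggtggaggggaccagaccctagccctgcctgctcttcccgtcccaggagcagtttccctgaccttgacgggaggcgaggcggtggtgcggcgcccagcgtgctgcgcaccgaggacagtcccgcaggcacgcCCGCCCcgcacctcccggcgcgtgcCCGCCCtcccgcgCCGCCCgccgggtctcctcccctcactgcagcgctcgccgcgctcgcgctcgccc
Sv2c, chr13:96132578-96132827, minus strand: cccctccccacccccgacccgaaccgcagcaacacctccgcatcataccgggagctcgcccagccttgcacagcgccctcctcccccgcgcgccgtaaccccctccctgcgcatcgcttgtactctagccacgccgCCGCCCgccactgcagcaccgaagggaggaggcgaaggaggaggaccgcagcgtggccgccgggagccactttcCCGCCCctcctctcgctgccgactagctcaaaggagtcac
The windows of Syt1, Syt2 and Sv2c held 1, 3 and 2 GC boxes, and that of Syt1 alone among them held CCAAT boxes, 2 in number. A GC box was found for 18 of 27 members (66.7%) and in 32.7% of all 32851 promoter windows of the same length. CCAAT was found for 4 of 27 (14.8%), against 33.8% of all. The AP-1 letters TGANTCA were found for 0 of 27, against 6.75% of all windows, and the cyclic AMP response element TGACGTCA for 2 of 27, against 1.55%. The GC content of the windows ranged from 47.6% to 80.4% over the members with a median of 61.2%, where the median of all promoters was 52.4%.

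Among the calcium sensors, Syt1 is the fast sensor of many central and sensory terminals. On chromosome 10 (108497650 to 109010982, GRCm38), its wild-type libraries gave 345, 361 and 363 CPM and its knockout libraries 234, 255 and 248 CPM. The highest knockout library stood well under the lowest wild-type library, and the wild-type libraries lay within a factor of 1.05 of each other. Its log2 fold change of -0.55 had a standard error of 0.10 (359 ± 10.8 CPM, n = 3, against 245 ± 13.2 CPM, n = 2; edgeR adjusted p = 0.235).

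Syt5, another calcium-binding synaptotagmin (chromosome 7), gave 60.6, 64.7 and 58.5 CPM in the wild-type libraries and 45.5, 48.3 and 44.3 CPM in the knockout libraries. Syt9, which can serve as a fast sensor in place of Syt1, lies on the same chromosome and was at 142, 166 and 141 CPM against 104, 120 and 121 CPM. Neither gene had overlapping groups. Both had a log2 fold change of -0.41, with standard errors of 0.10 and 0.13 (edgeR adjusted p = 0.332 and 0.436). Syt7, a sensor of high calcium affinity linked to slower release, had wild-type values of 237, 303 and 243 CPM and knockout values of 176, 239 and 241 CPM, so its groups overlapped (log2 fold change -0.33 with a standard error of 0.18).

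Syt2, the fast sensor of the neuromuscular junction and of some fast-firing neurons, had the opposite sign. Its wild-type libraries gave 218, 407 and 261 CPM and its knockout libraries 327, 567 and 578 CPM. Wild type 2 lay above knockout 4, and the wild-type libraries themselves spanned a factor of 1.87 (edgeR adjusted p = 0.609). The log2 fold change of Syt2 was 0.91 without wild type 2, 0.96 without knockout 4 and 0.14 without knockouts 5 and 6. Of the synaptotagmins that lack full calcium binding, Syt4 had a log2 fold change of -0.19 (standard error 0.13) and Syt11 of 0.06 (standard error 0.14).

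**Figure D2:**
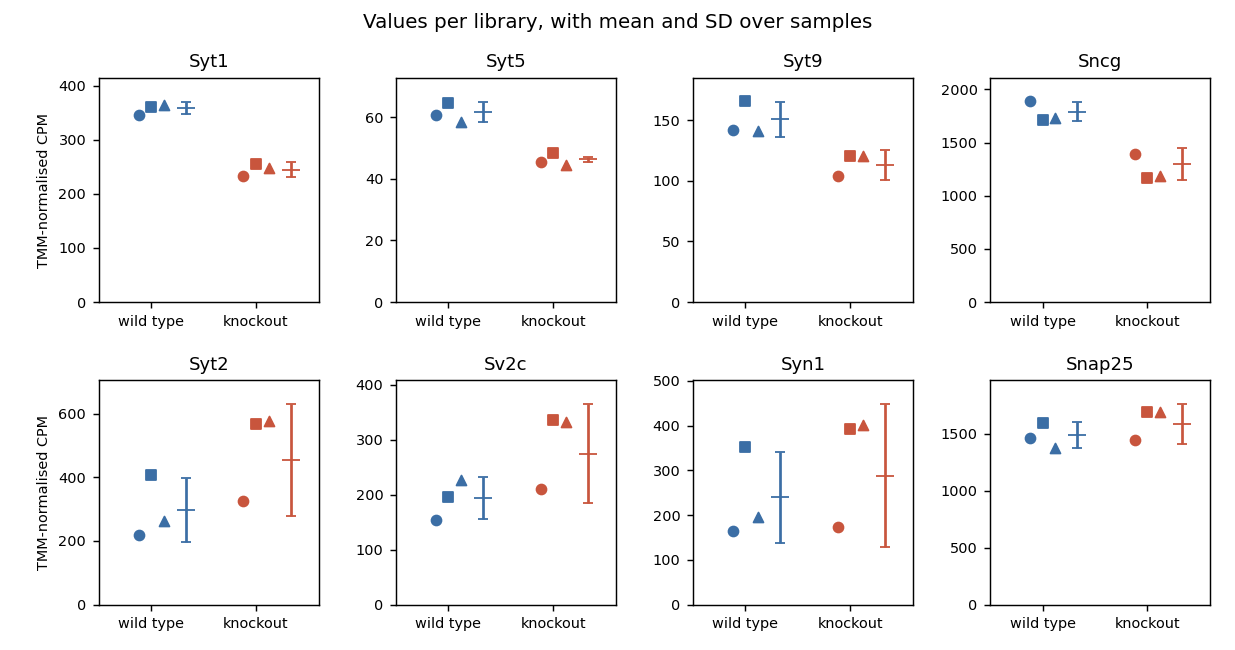
TMM-normalised CPM per library (points; circle, square and triangle are mice 1, 2, 3 or 4, 5, 6) and mean with SD over samples (bars; n = 3 and n = 2) for 8 genes. The knockout points lie under all wild-type points for Syt1, Syt5, Syt9 and Sncg, and the groups overlap for Syt2, Sv2c, Syn1 and Snap25.

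Outside the sensors, Sncg was the other gene lower in every knockout library. Its wild-type libraries gave 1886, 1715 and 1731 CPM and its knockout libraries 1392, 1167 and 1187 CPM, a log2 fold change of -0.47 with a standard error of 0.12 (edgeR adjusted p = 0.341). Knockout 4, the highest of its group for Sncg, was the lowest for Syt1 and Syt9. Leaving out single samples kept the negative sign of all 4 genes. Without knockout 4 the log2 fold change of Syt9 was -0.31, no longer under an unadjusted p of 0.05, and without knockouts 5 and 6 that of Sncg was -0.35, also no longer under it.

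The values of neuron type markers are given beside these genes, and none of the markers passed over all genes. Of 15 genes of non-peptidergic and itch neurons, 13 were negative with a median log2 fold change of -0.53. At an unadjusted p under 0.05, 9 of the 15 were lower, beside 3.99% lower and 5.15% higher among all tested genes. The summed TPM of these 15 was 1595 to 1688 in wild type and 1100 to 1368 in knockout, with no overlap. Of 16 genes of large-diameter neurons 11 were positive with a median of 0.23, and 4 were higher and 1 lower at that p. Of 10 genes of peptidergic neurons 6 were positive with a median of 0.02, and 2 were higher and 3 lower at that p, so this list had no common direction. The part of these lists in the values of Syt1, Syt5, Syt9, Sncg and Syt2 was not tested. Of the genes of axon injury 17 of 17 tested were positive with a median of 1.40. Of these, 7 passed, where 0.0952% of all tested genes did. All 14 genes of myelinating Schwann cells, all 9 of satellite glia and all 7 of endothelium were positive, with medians of 0.35, 0.28 and 0.46 and 0 past the test. At an unadjusted p under 0.05, 8, 3 and 3 of them were higher. Of 7 fibroblast genes 3 were positive and 4 negative (median -0.12), with 3 higher at that p. Of 8 macrophage genes 3 were positive and 5 negative (median -0.02), with 0 higher or lower at that p. The part of these lists in the members' values was not tested either. When libraries were scaled to the pan-neuronal markers in place of all genes, which moved the median of all genes to -0.12, the log2 fold changes were -0.67 for Syt1, -0.53 for Syt5 and Syt9, -0.58 for Sncg and 0.49 for Syt2.

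The ratio of 2 related genes within a library is free of the scaling between libraries. It is not free of effects of GC content, which was 45.8% for Syt1 and 51.6% for Syt2. On TPM, the ratio of Syt1 to Syt2 was 2.49, 1.37 and 2.2 in wild type and 1.11, 0.711 and 0.678 in knockout. Every knockout ratio was below every wild-type ratio. Syt9 over Syt2 gave 1.36, 0.871 and 1.11 against 0.661, 0.435 and 0.431, again without overlap, while Syt1 over Syt9 overlapped (1.57 to 1.98 in wild type and 1.58 to 1.69 in knockout). Of 10 such ratios, picked after the values were seen and given without a test, these were the 2 without overlap. Both divide a gene whose own groups did not overlap by Syt2, which had the highest log2 fold change of the members. They are therefore not separate results, and no share over other gene pairs was computed. Vamp1 over Vamp2 was 1.36, 1.01 and 1.14 in wild type and 1.69, 1.22 and 1.2 in knockout, and Sv2c over Sv2b 0.485, 0.635 and 0.8 against 0.7, 1.08 and 1.07.

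**Figure D3:**
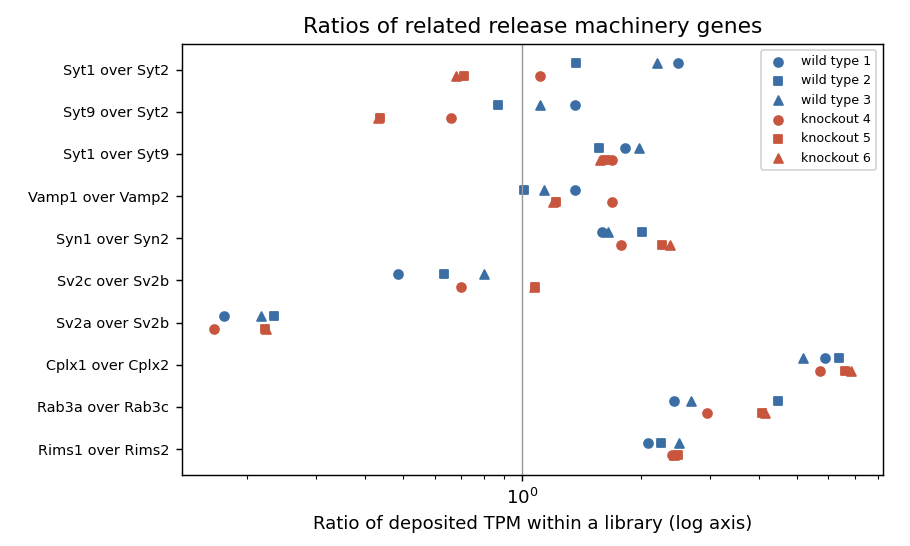
Ratio of deposited TPM of 2 related genes in each library (log axis; the line marks a ratio of 1); wild type in blue, knockout in red. Only Syt1 over Syt2 and Syt9 over Syt2 show knockout points wholly apart from wild-type points, at 0.678 to 1.11 and 0.431 to 0.661.

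The SNARE proteins and the complexins that clamp and assist them had log2 fold changes between -0.16 and 0.23, with none under an unadjusted p of 0.05. Snap25 gave 1464, 1597 and 1370 CPM in the wild-type libraries and 1446, 1688 and 1689 CPM in the knockout libraries, with overlapping groups (log2 fold change 0.09, standard error 0.12). Vamp1, the vesicle SNARE of motor terminals and large sensory neurons, was at 0.23 (standard error 0.14) and Vamp2, the main vesicle SNARE of the forebrain, at -0.06 (standard error 0.28). Stx1a, syntaxin 1A, was at -0.16 (standard error 0.13), Cplx1 at 0.14 (0.27) and Cplx2 at 0.04 (0.20). Nsf, the ATPase that pulls spent SNARE complexes apart, was at 0.14 (standard error 0.15) and its adaptor Napb at -0.15 (standard error 0.12). None of these genes had groups without overlap.

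Among the vesicle protein genes the range within wild type ran from 1.115-fold for Sv2b to 2.13-fold for Syn1. Syn1, synapsin 1, which tethers vesicles to each other and to actin, gave 165, 352 and 197 CPM in the wild-type libraries and 174, 393 and 401 CPM in the knockout libraries. The 2.13-fold range within wild type exceeded the 1.20-fold difference between the group means. Syn1 had a log2 fold change of 0.27 (standard error 0.43) and Syn2 of 0.03 (0.30). Sv2c, one of 3 SV2 membrane glycoproteins, was at 153, 197 and 227 CPM against 210, 336 and 333 CPM, where knockout 4 lay below wild type 3 (log2 fold change 0.50, standard error 0.24; edgeR adjusted p = 0.577). Its relatives were at 0.01 for Sv2b (standard error 0.10) and -0.09 for Sv2a (0.19). Syp, the vesicle membrane protein synaptophysin, was at 0.04 (0.18), and the vesicle GTPases Rab3a and Rab3c at 0.14 (0.22) and -0.04 (0.13).

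At the active zone, Unc13a, the Munc13 priming factor, was at 0.25 (standard error 0.28), and the scaffold proteins Bsn, bassoon, and Pclo, piccolo, at 0.31 (0.37) and 0.20 (0.14). The RIM proteins Rims1 and Rims2 were at 0.00256 (0.14) and -0.14 (0.12). Among endocytic genes Synj1, the lipid phosphatase synaptojanin 1, had wild-type values of 179, 245 and 197 CPM and knockout values of 211, 322 and 320 CPM (log2 fold change 0.36, standard error 0.21). Dnm1, the GTPase that cuts vesicles free, was at 0.15 (0.41), the endophilin Sh3gl2 at 0.14 (0.15) and the amphiphysin Amph at -0.09 (0.12). The groups overlapped for all of these genes.

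**Figure D4:**
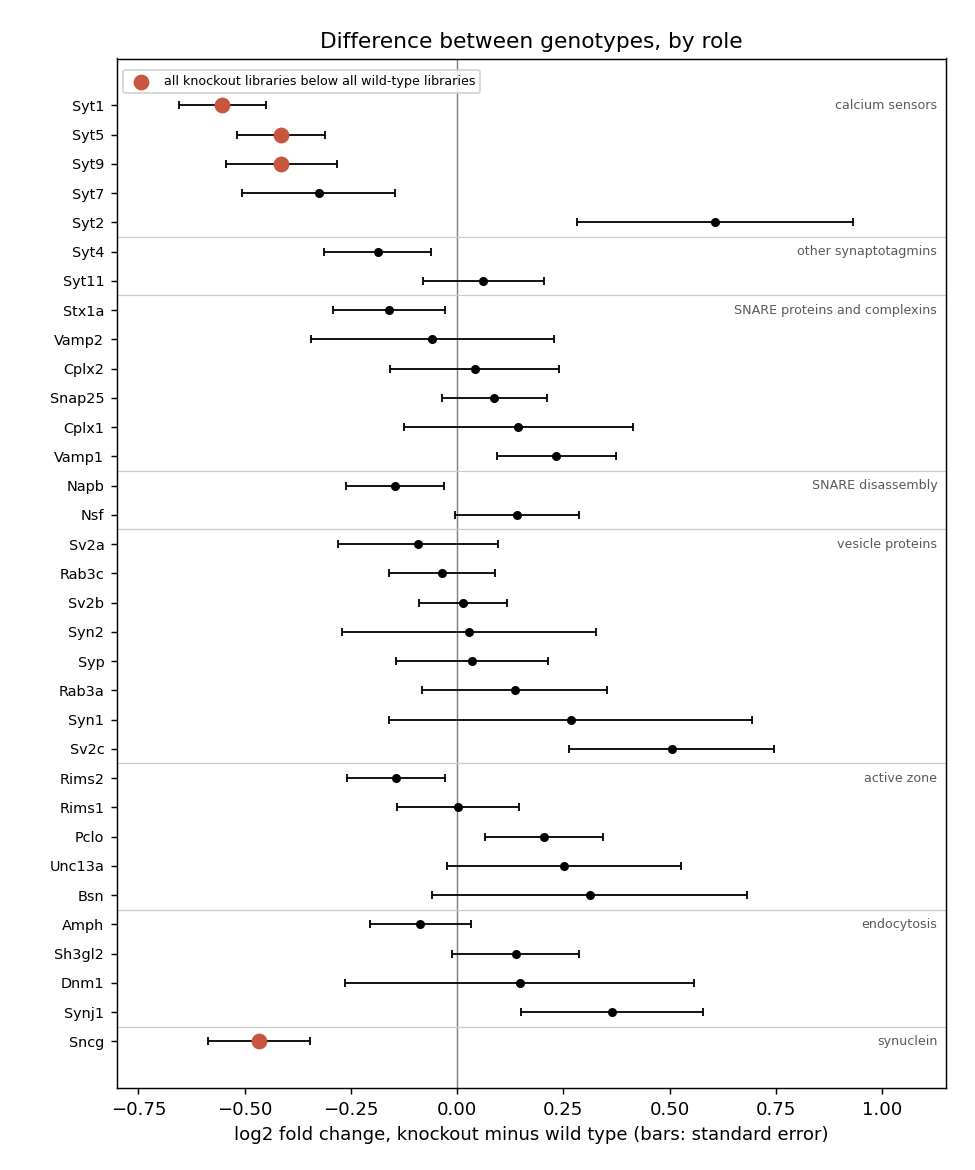
log2 fold change (knockout minus wild type) of each of the 33 genes with its standard error (bars), ordered by role; large red points mark genes with all knockout libraries below all wild-type libraries. These are Syt1, Syt5, Syt9 and Sncg, at -0.55 to -0.41, and Syt2 at 0.61 is the highest value.

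The spread within a genotype followed particular libraries. Wild type 2 was the highest wild-type library for 23 members (69.7%), where it was so for 40.6% of all tested genes, and knockout 4 the lowest knockout library for 28 (84.8%), where it was so for 43.0%. Dnm1 gave 233, 479 and 269 CPM in the wild-type libraries and 228, 492 and 498 CPM in the knockout libraries, and Bsn at 82.4, 153 and 99.3 against 88.4, 187 and 189 CPM. In both genes wild type 2 resembled knockouts 5 and 6, and knockout 4 resembled wild types 1 and 3.

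GC content moved with this spread. Across the 33 members the log2 ratio of wild type 2 to wild type 1 had a Pearson r of 0.63 and a Spearman rho of 0.61 with the GC content of the longest transcript, and the ratio of knockout 5 to knockout 4 had 0.51 and 0.45. Across all 16584 genes with a GC value the Spearman rho was 0.54 and 0.37. These are correlations across genes of the same pair of libraries, given as a description. Syn1, Dnm1 and Bsn have a GC content of 57.4% to 59.8%, and Snap25 of 38.7%. Snap25 still was higher in wild type 2 than in wild type 1 (1597 against 1464 CPM). It was also higher in knockout 5 than in knockout 4 (1688 against 1446 CPM). Sncg, at 56.6%, was instead lower in wild type 2 than in wild type 1. When a smooth GC trend was removed from each library, the log2 fold changes were 0.14 for Syn1, 0.02 for Dnm1 and 0.17 for Bsn. Those of Syt2, Sv2c, Synj1 and Vamp1 were 0.55, 0.51, 0.37 and 0.24, beside 0.61, 0.50, 0.36 and 0.23 before the removal. Syt1 was then at -0.53, Syt5 at -0.52, Syt9 at -0.46 and Sncg at -0.59 (edgeR adjusted p from 0.122 to 0.279).

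**Figure D5:**
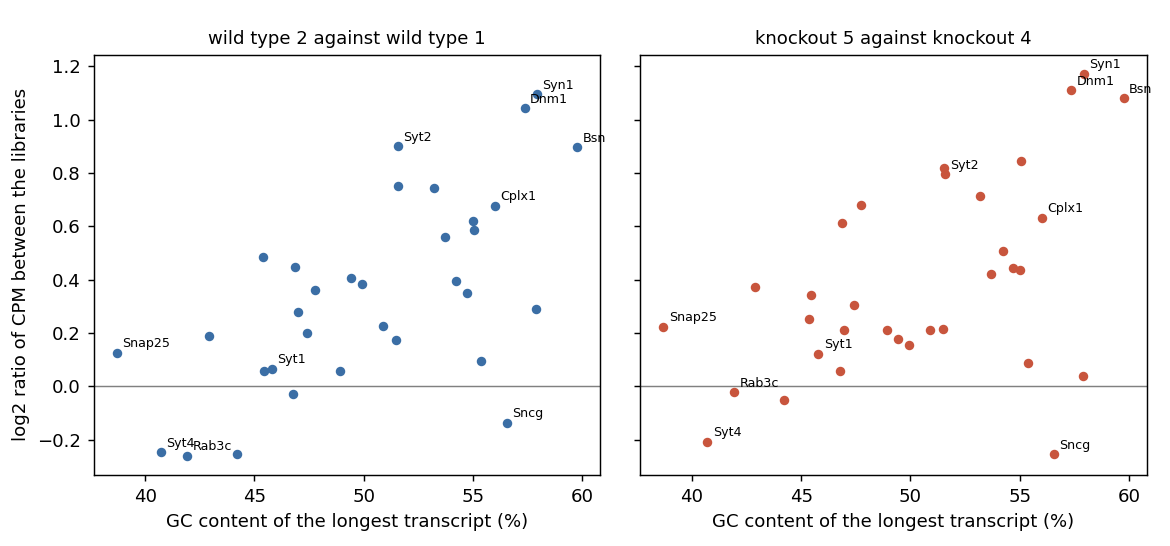
log2 ratio of CPM between 2 libraries of one genotype (left, wild type 2 against 1; right, knockout 5 against 4) and GC content (%) of each of the 33 genes. Syn1, Dnm1 and Bsn lie at the top right of both panels, and Syt4, at 40.7% GC, lies below 0 in both.

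The deposited gene length is, in RSEM, a mean over transcripts weighted by their estimated share, so it moves when isoform use moves. It was the same in all libraries for 10 members, which include Syt2, Syt5 and Sncg. Of 21 members whose length varied by over 0.1%, 4 were longer in every knockout library, where 4.9% of such genes were, and 0 were shorter, where 5.15% were. Rims1 was 3734, 3839 and 3706 bases in wild type and 3868, 3965 and 3901 bases in knockout, and Bsn 10556, 9940 and 10720 against 10721, 11257 and 11322 bases. For Nsf and Napb the lengths differed by under 1% over all libraries. The longest wild-type and shortest knockout lengths were 10719.8 and 10721.3 bases for Bsn, and 4400.2 and 4400.6 bases for Napb. Syt1 varied by 2.61% with overlapping groups (4372 to 4487 bases).

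Beyond the 33, 93 further genes of exocytosis and vesicle recycling were tested, with a median log2 fold change of 0.01. None passed over all genes by edgeR. At an unadjusted p under 0.05, 7 were lower and 1 higher, beside 3.99% and 5.15% of all tested genes. All knockout libraries lay below all wild-type libraries for 20 of the 93, where they did for 14.1% of all tested genes. Synpr, synaptoporin, a relative of synaptophysin found in subsets of sensory neurons, gave 478, 382 and 397 CPM in the wild-type libraries and 272, 238 and 238 CPM in the knockout libraries (log2 fold change -0.72, standard error 0.14; edgeR adjusted p = 0.249). Rab27b, a GTPase of secretory granule docking, had 153, 122 and 145 CPM against 97.2, 87.0 and 82.3 CPM. Rab3b had 15.4, 15.7 and 16.7 CPM against 11.3, 10.9 and 11.3 CPM. Their groups did not overlap, nor did those of Cadps2, a priming factor of dense-core vesicles, at -0.52, Snap47 at -0.30 and Syt16 at -0.40, these last 3 named after their values were seen.

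Syt13, a synaptotagmin that does not bind calcium, had the largest difference of the list (log2 fold change -2.02, standard error 0.44, edgeR adjusted p = 0.272). Its counts, not scaled for depth, were 68, 148 and 74 in wild type and 17, 25 and 34 in knockout. Itsn1, an endocytic scaffold, was the 1 gene higher at an unadjusted p under 0.05, with a log2 fold change of 0.36. Counting 6 libraries, Synpr and Rab3b passed, and DESeq2 on the 5 samples called Syt13, Synpr, Rab27b and Cadps2. All of these calls were lower in the knockout.

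Of 23 vesicular transporters and proton pump subunits, 16 were negative with a median of -0.09, and 0 passed. Slc17a8, the vesicular glutamate transporter 3, had 23.0, 21.5 and 22.4 CPM in wild type and 10.2, 11.8 and 12.5 CPM in knockout. The gene had a log2 fold change of -0.99 (standard error 0.13, edgeR adjusted p = 0.0935). It passed when the 6 libraries were counted separately (edgeR adjusted p = 0.0133) and by DESeq2 on the 5 samples (adjusted p = 1.37e-06). Slc17a7, the vesicular glutamate transporter 1 of large sensory neurons, was at 98.6, 183 and 102 CPM against 132, 216 and 217 CPM, with overlap (0.44, standard error 0.33). In the 14 genes of dense-core vesicles, which carry neuropeptides, 7 were positive and 7 negative, with a median of 0.03 and 0 past the test. Scg5, a chaperone of prohormone processing, was at -0.39 (standard error 0.14) and Vgf, a precursor of secreted peptides, at 0.86 (standard error 0.40). The 22 pan-neuronal genes had a median of 0.12, also with 0 past the test.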

How the data were processed

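The submitters' processing notes name Trimmomatic 0.38, STAR 2.6.0a, RSEM 1.3.0 and the build GRCm38. The labels' protocols name a stranded mRNA kit, and the sources used here do not give the annotation release or strand setting. The deposited table holds, per the file headers, expected counts (estimated counts, not normalized), TPM, FPKM and gene lengths in bases for each of 6 libraries. The deposited FPKM values were not used.

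Symbols came from a reference table of gene identifiers and names (35243 of 36793 identifiers matched), and gene positions and transcript sequences from GENCODE vM21 (GRCm38). Expected counts were rounded, libraries 5 and 6 summed, genes filtered with filterByExpr, scaled by TMM and tested with edgeR 4.0.16 (quasi-likelihood, two-sided, no covariate) in R 4.3.3, adjusted over all 16809 genes. Per-library CPM was scaled over the 6 libraries and group means over the 5 samples. A standard error is the absolute log2 fold change over the square root of F. GC content is that of the longest transcript. DESeq2 1.42.0 and limma 3.58.1 were alternatives. On simulated data of 16549 genes, 87 of 100 genes changed by 1 log2 unit and 100 of 100 changed by 2 were recovered, with 8 false calls. In the simulation the spread depended on the mean count alone, and genes of low count were not changed. The shares do not give the power of the real test, where Slc17a8 at -0.99 did not pass (edgeR adjusted p = 0.0935).

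The members and lists were chosen with earlier results of these data known. Named genes were all members. Values in every library were due for members at an unadjusted p under 0.05, for those without overlap and a log2 difference of at least 0.3, and for the 3 with the highest TPM. Those of Syt2, Syt7, Syn1, Sv2c, Synj1, Dnm1 and Bsn were printed outside this rule. From each other list up to 4 genes per direction with the smallest p could be named. Cadps2, Snap47, Syt16 and the ratios were chosen after their values were seen. Only the mouse numbers in the titles mark separate animals, and p-values measure the spread between these samples, which may be technical.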

Additional observations from a re-analysis of the deposited data

How the results depend on the processing

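No paired analysis was possible because no number in the titles is shared between wild type and knockout. The log2 fold changes of the 33 members were recomputed under 17 alternatives. Syt1, Syt5, Syt9 and Sncg kept a negative sign in all of them, from -0.67 to -0.50 for Syt1, and Syt2, Sv2c, Vamp1 and Synj1 a positive one. Of all these values 512 kept direction and side of the threshold, 2 gained the call (both Syt1) and 47 turned sign. The count of all genes past the threshold, 16, became 144 with 6 libraries counted separately, 246 with DESeq2, 81 with no filter, 26 with the GC trend removed and 30 at an adjusted p of 0.10. Leaving out single samples gave 7 (without knockout 4), 8 (without wild type 2), 10 (without wild type 3), 13 and 14. Members past the threshold numbered 1 with 6 libraries and 1 with DESeq2, and 0 in the other alternatives. Other release genes past it numbered 2, 4 and, with no filter, 1. With all samples kept, 4 members were lower at an unadjusted p under 0.05 in most alternatives. Upper-quartile scaling (3.74% of all genes lower) and pan-neuronal scaling (3.21%) gave 5, adding Syt7. Removal of the GC trend (6.26%) gave 6, adding Syt7 and Stx1a. Members higher at an unadjusted p under 0.05 numbered 4 with 6 libraries (9.51% of all genes were), 1 with DESeq2 (3.68%), 2 with no filter (5.27%), and 0 to 4 without single samples, with 2 without wild type 2 (8.19%) and 4 without knockout 4 (6.34%).

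Scaling to pan-neuronal genes moved the median of all genes to -0.12 and turned Syt11 to -0.049, Snap25 to -0.036, Syn2 to -0.10, Syp to -0.075, Cplx2 to -0.075, Sv2b to -0.11 and Rims1 to -0.13. The median of the members was then -0.075, and it ran from -0.17 without knockouts 5 and 6 to 0.20 without knockout 4. Removal of the GC trend turned Syn2 to -0.027, Cplx2 to -0.043 and Rab3c to 0.030. With upper-quartile scaling Syn2 was at -6.5e-06, Sv2b at -0.016 and Rims1 at -0.029. Vamp2 was at 0.052 with 6 libraries, and Rims1 at -0.014 with knockout 6 alone, at -0.058 on log2(TPM + 1) and at -0.060 on log2(TPM + 0.1). The cause was not tested.

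Without single samples, members that turned sign ranged as follows, mostly from the value without knockouts 5 and 6 to that without knockout 4. Dnm1 ran from -0.52 to 0.60, Vamp2 from -0.47 to 0.26, Syn1 from -0.45 to 0.74 and Syn2 from -0.43 to 0.38. Sv2a ran from -0.37 to 0.14, Bsn from -0.34 to 0.76, Unc13a from -0.24 to 0.62 and Cplx1 from -0.21 to 0.43. Amph ran from -0.19 to 0.011, Cplx2 from -0.17 to 0.23, Rims1 from -0.15 to 0.14 and Rab3c from -0.12 to 0.025. Syp ran from -0.11 to 0.21, Rab3a from -0.10 to 0.34, Sh3gl2 from -0.066 to 0.32, Sv2b from -0.032 to 0.064, Snap25 from -0.031 to 0.20 and Syt11 from -0.019 to 0.16. Leaving out knockout 4, or knockouts 5 and 6, left 1 knockout sample, whose variation is assumed to equal that among wild types. Counts were at least 916 per library for the members and as low as 17 for Syt13.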
